A study of Mus musculus with 4 samples.

Results

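The comparison set mammary glands of mice carrying a PPARδ transgene against those of wild-type mice, both kept on standard rodent chow. It rested on 2 of the 4 Affymetrix mouse arrays of the study, chosen by their labels: the array of the MMTV-PPARd genotype on chow and the array of its wild-type littermates on chow. The mice were all female and nulliparous on the FVB background, matched for an age that was not given, and each array held RNA pooled from 5 mice. The other 2 arrays held the same genotypes after 1 week on chow with GW501516, a synthetic PPARδ agonist, and are used here only to set values side by side; the labels give its content as 0.005% in the protocol and as 0.001% in a treatment tag. With 1 pool per group there was no replicate spread and no test, so every difference describes these pools. Whole gland was extracted, so fewer cells of a type and less RNA per cell cannot be told apart.

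PPARδ is a nuclear receptor that binds fatty acids and their derivatives, pairs with a retinoid X receptor (RXR) on DNA, and in many tissues raises genes of fatty acid uptake and oxidation. The mouse mammary tumour virus (MMTV) promoter responds to steroid hormones and is active mainly in mammary epithelium, with known activity in other secretory and lymphoid tissue. The gland of a virgin mouse is a sparse tree of luminal and basal epithelial cells in a large fat pad, and it makes milk proteins in quantity only from pregnancy onwards.

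The values were intensities, each array scaled by its authors to a common mean. Any value under 20.5 (the 25th percentile over the arrays) was raised to that floor; where this touched one side, a fold is written as at least N-fold. Control probes set the transgenic chow array apart. The added bacterial transcript BioB read 19.3 to 41.6 there against 261.0 to 519.0 on the other arrays, and all 12 probe sets of the other added transcripts (BioC, BioD and Cre) were lower than on the wild-type chow array, by 1.17- to 1.49-fold. The control probe set for the 5′ part of Gapdh read 8730.0 for wild type and 3572.5 for transgenic mice on chow, against 12274.2 and 10269.0 on GW501516. The ratio of 3′ to 5′ Gapdh signal was 0.77 and 1.12 on the chow arrays. The part these departures play in the differences was not tested.

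Defining markers of epithelium and adipocytes were present on both chow arrays. Summed intensities of 7 epithelial markers were 16341.9 for wild type and 23610.6 for transgenic mice, and 4 of the 7 were at least 2-fold higher. The sums of 6 basal markers were 8250.4 and 12825.1, of which Krt14 alone made up 323.2 and 3651.7. The wider list of 15 basal genes summed to 47067.2 for wild type and 44128.8 for transgenic mice. Markers of other tissues differed too: 5 T cell markers summed to 3381.6 and 1112.0, 4 B cell markers to 2367.5 and 1189.5, and 5 skeletal muscle markers to 10355.0 and 20903.1. On the GW501516 arrays the T cell sums were only 126.7 and 103.4 and the muscle sums 68334.2 and 69097.0, so both chow arrays carried more lymphocyte and less muscle marker signal than the other pair. The sums of 4 adipocyte markers were 39856.5 and 28519.6, while 4 endothelial markers were nearly level at 1797.4 and 1920.7. Of 4 salivary gland markers 3 were at the floor on both chow arrays.

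**Figure D1:**
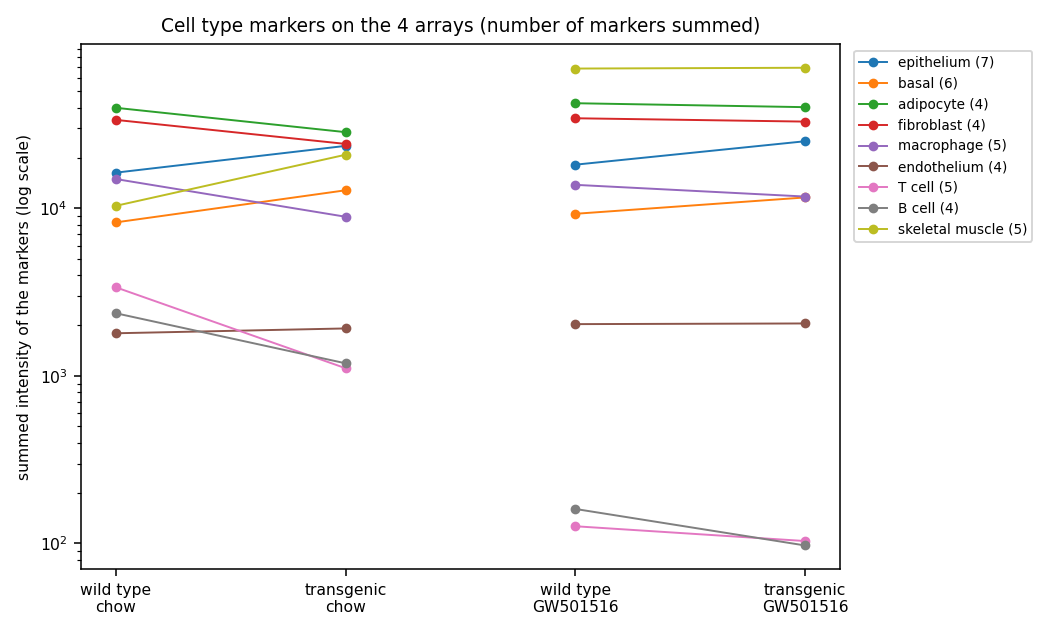
Summed intensity (log scale) of the markers of 9 cell types on the 4 arrays, 1 point per array, with a line joining the genotypes of each diet and the number of markers summed in brackets. On chow the T cell sum was 3381.6 for wild type and 1112.0 for transgenic mice, and the muscle sum 10355.0 and 20903.1.

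In the transgenic pool 426 of 7835 genes (5.44%) stood at least 2-fold above wild type, and 289 (3.69%) at least 2-fold below. Counts of list members on chow given below are to be read against these shares. Folds of at least 4 were reached by 113 genes on the higher side and 26 on the lower side, and folds of at least 8 by 33 and 6. The median log2 difference over all genes was 0.02. Differences were most frequent among dim genes. Of 1426 genes with a geometric mean chow intensity below 200, after the floor, 21.9% differed by 2-fold either way. The share was 0.987% of 304 genes at 5000 or more. A dim gene could be kept through 1 high array, and the part of this filter in the rate was not tested. Where a gene had further probe sets, these gave the only measure of scatter, which holds none between arrays. For 264 genes at 2-fold they moved the same way in 210, were at 0 in 41 and went the opposite way in 13. Among genes named below as 2-fold, Col5a3, Ehhadh, Gpam, Jag2, Kif11, Saa2, Slc15a2 and Wnt5a were within 2-fold under at least 1 alternative way of processing.

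Ppard led the list. Its single probe set read 2.1 in the wild-type pool and 1943.0 in the transgenic pool on chow, at least 94.8-fold higher, and 1.5 and 4223.5 on GW501516. This probe set thus read below the floor in the wild-type pools on both diets, and far above it in the transgenic pools. Whether it lies inside the transgene, or detects the transcript of the mouse's own gene, was not examined here.

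Several of the next genes are epithelial or secretory. Plac1, first described in placenta, read 9.2 and 1822.9 (wild type first here and below), at least 88.9-fold higher. Gjb6 and Gjb2 encode the gap junction proteins connexin 30 and connexin 26; Gjb6 read 10.5 and 1326.4, at least 64.7-fold higher, and Gjb2 50.4 and 1729.7, which is 34.3-fold. Bcl2l15, a BCL2 family member, read 19.6 and 941.2, at least 45.9-fold. Atp6v1c2, a subunit of the proton pump, read 57.0 and 1608.9, which is 28.2-fold. In transgenic mice on GW501516 all 5 were higher as well, by 3.97-fold for Atp6v1c2 up to at least 101-fold for Plac1.

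Other genes of the top 20 did not reach 2-fold on GW501516. Rspo1, a secreted enhancer of WNT signalling, read 67.8 and 1604.5 on chow, 23.7-fold higher, but 58.4 and 39.7 on GW501516. Rprm, a p53-induced cell cycle inhibitor, read 11.8 and 344.7, at least 16.8-fold higher, and was below the floor in both genotypes on GW501516. Shisa2 read 62.9 and 835.4 on chow, and 451.3 and 415.9 on GW501516. Each of these was thus high on the transgenic chow array relative to its wild-type partner and within 2-fold, or at the floor, in the other pair. The remaining genes of the top 20 included Syt9, a synaptotagmin (14.6-fold), Slc5a1, the sodium-glucose cotransporter (at least 12.6-fold), and Nfe2l3, a transcription factor (12.3-fold). Unlike Rspo1, Rprm and Shisa2, they also reached 2-fold on GW501516: Syt9 at least 3.03-fold, Slc5a1 3.21-fold and Nfe2l3 4.85-fold. On chow the other probe sets of Nfe2l3 gave smaller log2 differences (0.93 and 2.06 against 3.62).

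At the other end, Aoc1, diamine oxidase, read 477.2 and 11.2, at least 23.3-fold lower. Ido1, a tryptophan-degrading enzyme, read 718.3 and 47.4, 15.2-fold lower. Ngfr, the low-affinity neurotrophin receptor, read 614.9 and 51.6, 11.9-fold lower, although its 2 other probe sets were at 0. Sprr1a, a cornified envelope protein, read 229.7 and 17.1, at least 11.2-fold lower, and Mmd2 760.8 and 74.2, 10.3-fold. Lrg1, a glycoprotein made in inflammation, read 4624.5 and 699.2, 6.61-fold lower. On GW501516 all 6 were within 2-fold between genotypes, Ido1 only just, at 135.9 and 68.1. Immune genes filled several further places, among them Ccl22 (6.77-fold), Ccr9 (6.51-fold), Prtn3 (6.05-fold), Cd8b1 (5.82-fold) and Coro1a (4.35-fold). The other probe sets of Ccr9 stood at log2 differences of -0.40 and -1.62, and those of Coro1a at 0 and -1.91.

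**Figure D2:**
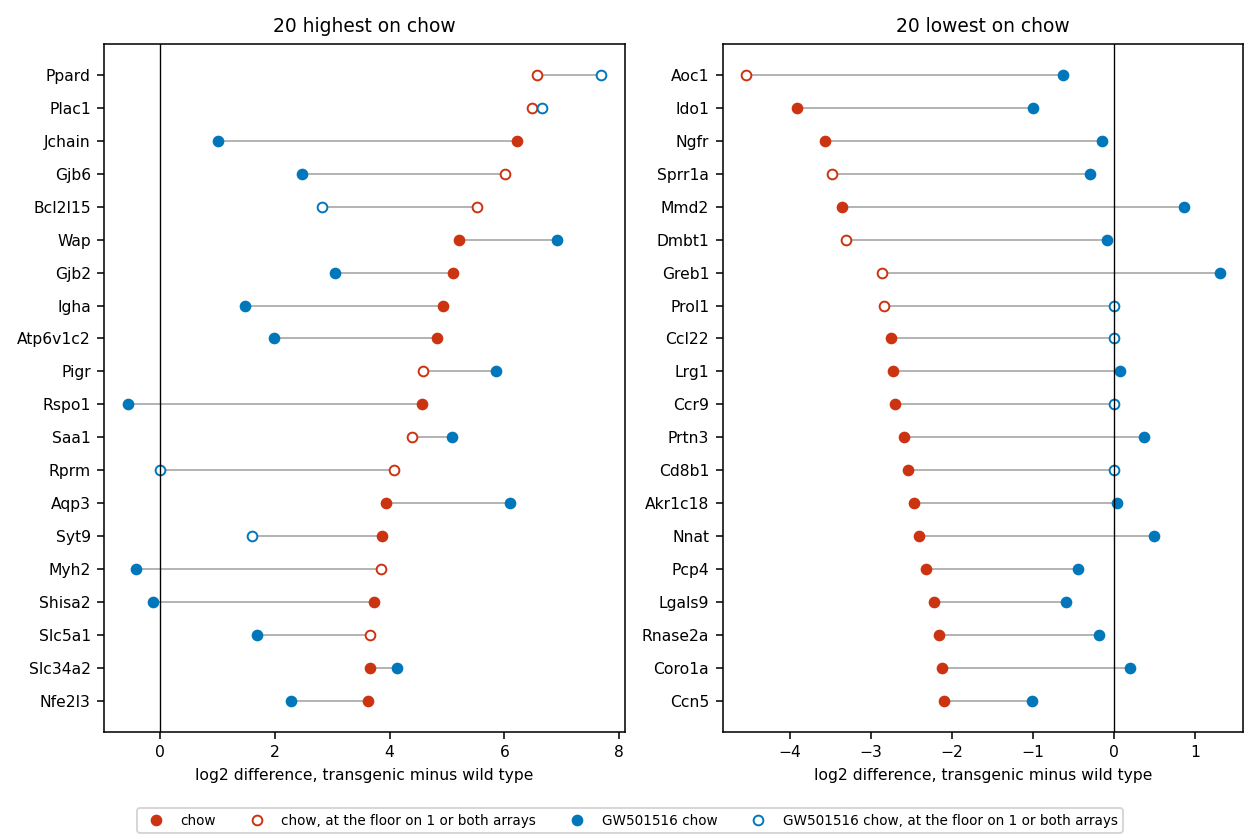
Log2 difference, transgenic minus wild type, for the 20 genes highest and the 20 lowest on chow, with red points for chow, blue points for GW501516 and open points where 1 or both arrays were at the floor. Ppard, Plac1 and Wap lie far to the right on both diets, whereas Rspo1, at 4.56 on chow, is at -0.56 on GW501516 and most of the lowest genes lie near 0 there.

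Milk protein genes were higher as a list. The log2 differences of its 13 measured members had a median of 1.85; 9 reached 2-fold upwards and 1 downwards, against 5.44% and 3.69% of all genes. Wap, the whey acidic protein, read 29.8 and 1097.9, 36.8-fold higher. Muc15, a membrane mucin of the milk fat globule, read 579.5 and 5582.4, 9.63-fold higher. The caseins Csn1s1, Csn2 and Csn1s2a were higher by 5.28-, 4.68- and 4.40-fold, at 2489.7 and 13145.3, 2258.4 and 10562.4, and 3215.0 and 14140.0. The other probe sets of Csn2 and Csn1s2a went the same way.

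The list was not uniform. Lalba, the α-lactalbumin needed to make lactose, read 624.5 and 159.0 on chow, 3.93-fold lower, yet 1767.9 and 10324.9 on GW501516, 5.84-fold higher. Csn3 (κ-casein) read 8042.7 and 5263.9, and Ltf (lactoferrin) 679.6 and 426.6, both lower by less than 2-fold. Genes of milk fat synthesis did not share the difference, their median being -0.24 over 16 members, 2 of which reached 2-fold upwards: Olah, which ends fatty acid chains at medium length, at 1.2 and 154.1 (at least 7.52-fold), and Fabp3, a fatty acid binding protein, at 884.2 and 4160.2 (4.71-fold).

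Casein transcription is known to depend on prolactin, acting through the transcription factor STAT5, whose core site has the letters TTCNNNGAA. These letters, read on either strand, stood within 250 bases before to 50 bases after the start of 4 of the 10 milk protein genes with a listed promoter (40%), against 6.82% of the promoters of measured genes and 8.47% of all listed promoters. They are shown for the 2 caseins with the largest fold, from RefSeq on build GRCm38.p6, 5′ to 3′ on the gene's strand with the match in capitals. Csn2 is on the minus strand at chr5:87699376-87699675 with the match 93 bases before its start, and Csn1s1 on the plus strand at chr5:87665958-87666257 with the match 100 bases before.
Csn2: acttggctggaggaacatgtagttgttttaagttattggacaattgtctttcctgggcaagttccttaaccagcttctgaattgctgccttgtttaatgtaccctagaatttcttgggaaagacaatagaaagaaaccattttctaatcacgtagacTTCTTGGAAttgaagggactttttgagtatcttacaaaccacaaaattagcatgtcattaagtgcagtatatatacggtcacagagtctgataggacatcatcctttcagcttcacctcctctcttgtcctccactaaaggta
Csn1s1: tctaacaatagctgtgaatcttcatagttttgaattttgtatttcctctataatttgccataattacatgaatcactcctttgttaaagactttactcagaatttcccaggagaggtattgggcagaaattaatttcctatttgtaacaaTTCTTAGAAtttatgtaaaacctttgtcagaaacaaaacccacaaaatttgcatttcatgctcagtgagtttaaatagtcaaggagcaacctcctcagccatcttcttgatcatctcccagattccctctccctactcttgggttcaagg
Among the genes at least 2-fold higher the letters were no more frequent than elsewhere, in 18 of 317 promoters (5.68%), and in 20 of 216 (9.26%) of those at least 2-fold lower.

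The list of alveolar transcription factors and prolactin signalling genes was mostly higher. Its median was 0.76, with 5 of 15 higher by 2-fold or more and 1 lower. Elf5, an ETS factor required for alveolar cells, read 882.3 and 4920.3, 5.58-fold higher, and Ehf, a related epithelial ETS factor, 240.1 and 1411.3, 5.88-fold. Tfap2c (AP-2γ) read 231.9 and 1042.5 (4.5-fold), Id2 1236.4 and 3551.3 (2.87-fold) and Sox10 150.5 and 403.2 (2.68-fold). Sox10 is also a member of the nerve sheath list, and its other probe sets stood at log2 differences of 0 and 1.08. The member lower by 2-fold or more was Socs2, a STAT5-induced inhibitor of cytokine signalling, at 2237.7 and 821.8, 2.72-fold lower. Elf5 differed by much the same factor on GW501516 (5.04-fold), whereas Ehf was 1.66-fold and Tfap2c 1.77-fold higher there.

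Luminal epithelial markers were higher as a list. The median was 1.14, and 10 of 18 were higher by 2-fold or more, 0 lower. Muc1, a mucin of the apical surface, read 27.6 and 206.8 (7.49-fold higher), Esrp1, an epithelial splicing regulator, 287.9 and 1246.8 (4.33-fold), and Cdh1, E-cadherin, 454.1 and 1828.6 (4.03-fold). The luminal keratins Krt8 and Krt18 were nearly level, at 6056.8 and 5932.5, and 5619.5 and 5851.1. The 15 basal markers had their median at 0.43, and 3 were higher by 2-fold or more: Krt14 at 323.2 and 3651.7 (11.3-fold), Trp63 at 169.4 and 592.4 (3.5-fold) and Jag2 at 57.4 and 123.8 (2.16-fold). The 2 further probe sets of Krt14 stood at log2 differences of 0.08 and 3.71, and those of Trp63 were at 0. Krt14 was 8.41-fold higher on GW501516 too, while Trp63 and Jag2 were within 2-fold.

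Tight junction and adhesion genes followed the same pattern, at a median of 0.87, with 18 of 20 above 0, 9 of them by 2-fold or more, and 0 lower by as much. Tjp3, a scaffold of tight junctions, read 81.5 and 619.8 (7.60-fold higher), and Marveld2, tricellulin, 48.5 and 255.5 (5.27-fold). Cldn8, a claudin, read 190.3 and 733.4 (3.85-fold) and Ocln, occludin, 111.2 and 348.2 (3.13-fold). Connexins had no common direction: next to Gjb6 and Gjb2, Gja4, a connexin of vessels, read 262.3 and 99.1 (2.65-fold lower) and Gja1 5082.2 and 3618.5. On GW501516 the median was 0.41 with 15 of 20 above 0, and the 2 members at 2-fold, where 2.8% of all genes were, were Tjp3 (2.82-fold) and Ocln (3.02-fold).

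Genes that move water, ions and nutrients across epithelium were more often higher than lower. Water and ion transport genes (18) had their median at 0.53; 6 reached 2-fold upwards and 1 downwards. Aqp3, a channel for water and glycerol, read 51.0 and 780.0 (15.3-fold higher), and Slc34a2, a phosphate transporter, 36.3 and 456.0 (12.6-fold). Car2, a carbonic anhydrase, read 348.6 and 2257.6 (6.48-fold) and Kcnn4, a calcium-gated potassium channel, 665.0 and 3273.1 (4.92-fold). The member below was another water channel, Aqp5, at 755.9 and 219.1 (3.45-fold lower) on chow and 869.8 and 865.1 on GW501516. Of 15 nutrient transporters 3 were at least 2-fold higher: Slc28a3, a nucleoside carrier (5.37-fold), Slc39a8, a zinc carrier (4.18-fold), and Slc15a2, a peptide carrier (2.06-fold). The other probe set of Slc39a8 stood at a log2 difference of only 0.21.

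Cell division genes were higher as a group, most by less than 2-fold. All 35 measured mitosis genes were above 0, 11 of them by 2-fold or more, around a median of 0.89, and 24 of 25 DNA replication genes were above 0 with 2 at least 2-fold higher and a median of 0.65. Over all genes 51.8% were above 0. Ect2, which directs cytokinesis, read 92.3 and 352.6 (3.82-fold higher), Ttk, a spindle checkpoint kinase, 75.6 and 220.7 (2.92-fold), and Kif11, a spindle motor, 108.5 and 288.1 (2.66-fold). Other probe sets gave smaller differences for Kif11 (0.45 and 0.75), for Nusap1, a spindle protein (0.35 against 1.51), and for Bub1, a checkpoint kinase (0.08 against 1.41). Mki67, the marker of dividing cells, read 447.5 and 1017.4 (2.27-fold). The replication genes at 2-fold were Prim1, a primase subunit (2.43-fold), and Ccne2, cyclin E2 (2.23-fold). On GW501516 the medians were 0.80 and 0.53, and 34 of the 35 mitosis genes were above 0 there, on a pair of arrays not shared with the chow pair. At least 2-fold higher on both diets were 7 of the 35 mitosis genes, against 123 of all 7835 genes. Upstream of the cycle, Ccnd1, cyclin D1, read 1319.7 and 3163.9 (2.40-fold) and Ccnd2 3151.2 and 1718.1 (1.83-fold lower).

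Promoters of mitotic genes are known for a repressor element with the letters TTTGAA, bound in resting cells, and for CCAAT boxes. Of 30 mitosis genes with a listed promoter 24 (80.0%) held TTTGAA and 24 (80.0%) CCAAT on either strand, against 11.9% and 38.1% of the promoters of measured genes. The replication genes held TTTGAA in 2 of 22 and CCAAT in 15 of 22 (68.2%). The promoters of Ect2, the mitosis gene with the largest fold, and Kif11 are shown for their arrangement, with both motifs and their reverse complements in capitals. Ect2 lies on the minus strand at chr3:27153829-27154128 and Kif11 on the plus strand at chr19:37376132-37376431, both from RefSeq on GRCm38.p6.
Ect2: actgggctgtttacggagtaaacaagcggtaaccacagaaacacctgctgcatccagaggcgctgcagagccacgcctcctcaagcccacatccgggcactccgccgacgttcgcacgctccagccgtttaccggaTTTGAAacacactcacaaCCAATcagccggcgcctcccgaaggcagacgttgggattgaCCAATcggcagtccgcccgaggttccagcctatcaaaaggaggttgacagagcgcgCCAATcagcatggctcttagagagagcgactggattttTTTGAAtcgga
Kif11: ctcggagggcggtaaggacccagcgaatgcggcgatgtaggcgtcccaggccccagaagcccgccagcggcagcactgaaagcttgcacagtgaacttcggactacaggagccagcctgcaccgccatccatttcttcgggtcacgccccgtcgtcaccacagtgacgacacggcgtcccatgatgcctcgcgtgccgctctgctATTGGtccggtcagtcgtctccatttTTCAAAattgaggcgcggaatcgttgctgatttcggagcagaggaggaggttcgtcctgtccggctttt
In Kif11 both are on the reverse strand, with CCAAT 45 and TTTGAA 19 bases before the start; in Ect2 a TTTGAA lies 114 bases before it with CCAAT boxes at 96 and 55, and further matches lie at and after the start. These matches describe the letters only and are not evidence of binding in these glands.

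**Figure D3:**
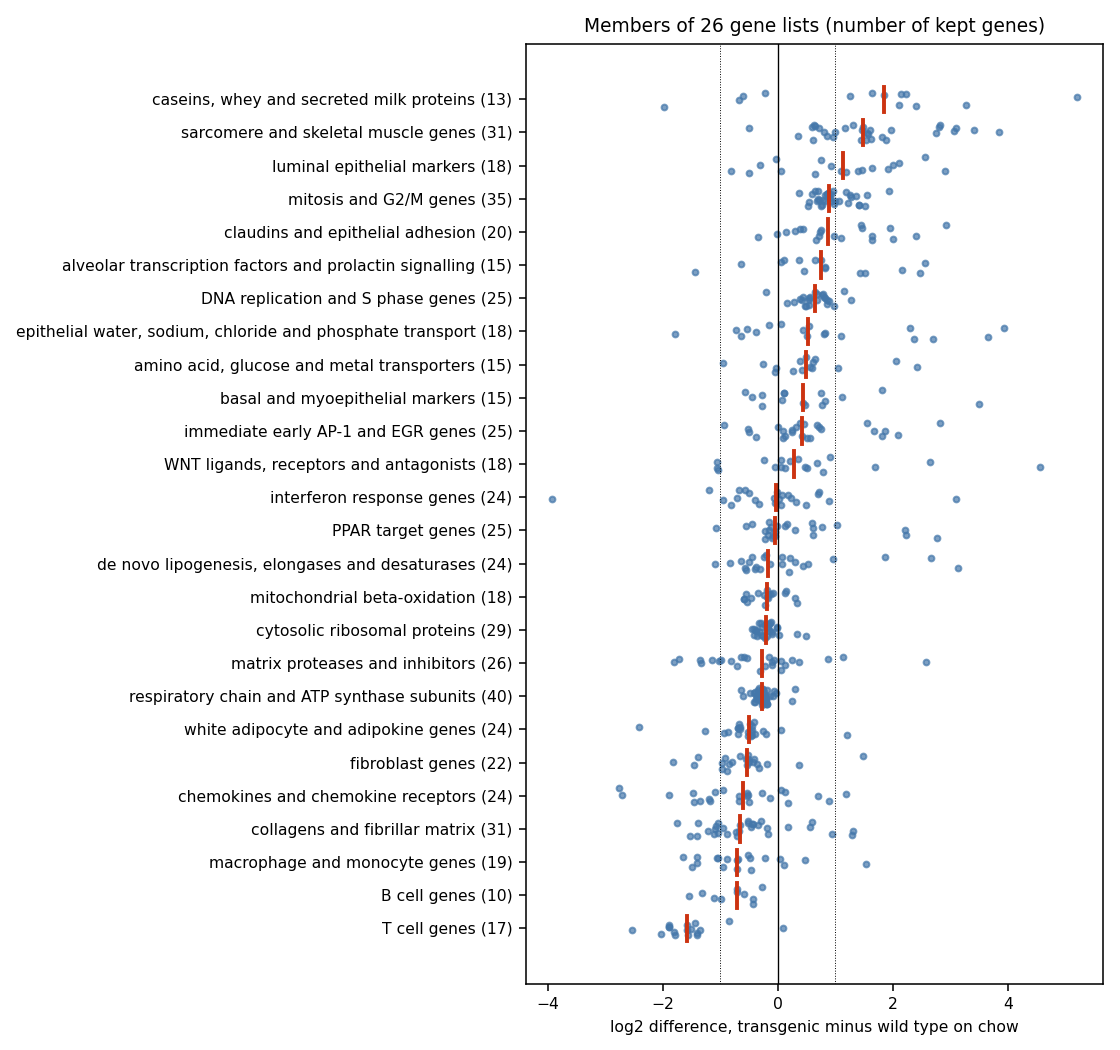
Log2 difference, transgenic minus wild type on chow, of each measured member of 26 gene lists (points) with the list's median (red bar) and dotted lines at 2-fold. The milk protein list has its median at 1.85 with Lalba far to the left, the mitosis genes all lie above 0 around 0.89, and the T cell genes lie at the bottom around -1.57.

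Signals that pass between cells of the gland were mixed. Tnfsf11 (RANKL), the progesterone-induced signal to epithelial stem cells, read 92.3 and 382.4 on chow, 4.14-fold higher, and was below the floor in both genotypes on GW501516. Greb1, an estrogen-responsive gene, read 149.1 and 15.9, at least 7.27-fold lower, and Fgf10, a stromal growth factor, 231.1 and 94.5 (2.45-fold lower). In the WNT list 3 of 18 reached 2-fold upwards and 3 downwards. The higher ones were Rspo1, the antagonist Wif1 at 152.8 and 956.0 (6.26-fold) and the ligand Wnt5b at 88.9 and 285.5 (3.21-fold). The lower ones were the ligands Wnt2 (2.07-fold) and Wnt5a (2.08-fold) and the antagonist Sfrp4 (a log2 difference of -1.04). Chrdl2, a BMP antagonist, read 5.5 and 186.1, at least 9.08-fold higher. No member of the 8 ERBB receptors and ligands reached 2-fold, with Erbb2 at 93.2 and 164.3 and Egfr at 546.3 and 318.0. Of 14 Notch genes 2 did, Jag2 and the ligand Dll1 (2.29-fold).

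PPAR and lipid genes showed no shared direction. The 25 measured PPAR target genes had a median of -0.04, or -0.11 to 0.15 under the alternatives; 4 reached 2-fold upwards and 1 downwards. Acot1, an acyl-CoA thioesterase, read 656.7 and 4503.1 (6.86-fold higher), Acaa1b, a peroxisomal thiolase, 828.8 and 3837.5 (4.63-fold), and Ehhadh, the peroxisomal bifunctional enzyme, 613.1 and 1249.8 (2.04-fold); the other was Fabp3. Vnn1, a pantetheinase, read 609.7 and 288.3 (2.11-fold lower). Targets often used to read PPARδ activity were within 2-fold on chow. Pdk4, which restrains glucose oxidation, read 4172.4 and 4059.7, Angptl4, an inhibitor of lipoprotein lipase, 4852.2 and 4835.3 (its other probe set at a log2 difference of 0.36), and Cpt1a, the entry enzyme of mitochondrial oxidation, 764.8 and 942.6 (a log2 difference of 0.30, with 0.59 and 0.70 for its other probe sets). Plin2, which coats lipid droplets, read 5063.2 and 7680.4 (1.52-fold higher).

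Among receptors and partners, Pparg, the adipocyte receptor, read 1770.3 and 1100.5 (1.61-fold lower) and Rxra, the main RXR partner, 591.1 and 604.6. Crabp2, which brings retinoic acid to its receptor, read 129.5 and 795.9 (6.15-fold higher) and was 8.06-fold higher on GW501516. None of 18 mitochondrial β-oxidation genes reached 2-fold and 14 were below 0, with a median of -0.19. Of 24 lipogenic genes 3 were at least 2-fold higher, the elongases Elovl3 (95.3 and 839.0, 8.80-fold) and Elovl7 (120.0 and 764.2, 6.37-fold) and the desaturase Fads2 (192.3 and 702.7, 3.65-fold), and 1 was lower, the glycerol acyltransferase Gpam (2.13-fold). Sqle, squalene epoxidase of sterol synthesis, read 177.6 and 607.3 (3.42-fold higher). White adipocyte genes, 22 of 24 of them below 0, had their median at -0.50. Their lowest members were Nnat (923.9 and 173.3, 5.33-fold lower) and Agt, angiotensinogen (266.5 and 110.3, 2.42-fold), while G0s2, an inhibitor of triglyceride breakdown, was 2.29-fold higher.

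Matrix genes were lower. The 31 collagens and fibrillar matrix genes had their median at -0.65; 25 were below 0, 10 by 2-fold or more, while 2 were higher by 2-fold or more. Col1a1, the main fibrillar collagen chain, read 2782.4 and 1064.8 (2.61-fold lower), Col5a3 1517.9 and 449.5 (3.38-fold, its other probe set at 0) and Thbs2, a thrombospondin, 1590.5 and 552.3 (2.88-fold). Igfbp6, a binding protein of fibroblasts, read 5465.8 and 1543.5 (3.54-fold lower), and Cd248 1063.5 and 389.4 (2.73-fold). Of 26 matrix proteases and inhibitors 6 were at least 2-fold lower, led by Timp1 at 1092.0 and 314.4 (3.47-fold) and Plau, urokinase, at 367.6 and 111.8 (3.29-fold). The 2 higher ones were Mmp12, the macrophage elastase, at 31.2 and 186.0 (5.96-fold), and Serpinb5, maspin (2.20-fold). The collagen median on GW501516 was -0.09. The sums of 4 fibroblast markers were 33757.6 and 24259.1 on chow, and their part in the matrix differences was not tested.

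Lymphocyte genes were lower, alongside the marker sums given above. The median of 17 T cell genes was -1.57; 15 were lower by 2-fold or more and 0 higher. Cd8b1, a chain of the CD8 coreceptor, read 550.9 and 94.7 (5.82-fold lower), Cd5 363.9 and 89.2 (4.08-fold) and Ccr7, the homing receptor for lymph nodes, 431.0 and 115.9 (3.72-fold). All of these were below the floor in both genotypes on GW501516. All 10 B cell genes were below 0, 3 of them at least 2-fold: Spib (2.91-fold), Cd79b (2.50-fold) and Fcer2a (2.16-fold). Of 24 chemokines and receptors 9 were at least 2-fold lower. The one higher was Cx3cl1, at a log2 difference of 1.19. Of 10 genes in the list of MHC class II presentation 2 were at least 2-fold lower. These were Cd74, the invariant chain, at 2970.6 and 1349.8 (2.20-fold), and Ccl22, a chemokine that is also counted in the chemokine list. The class II chain gene H2-Aa was 1.55-fold lower. The part of lymphocyte content in these differences was not tested.

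The 19 macrophage genes had their median at -0.70, and 6 were lower by 2-fold or more, among them C1qc, a complement component, at 1887.4 and 710.1 (2.66-fold) and Folr2 at 1820.2 and 685.0 (2.66-fold). The exception was Cd14, the lipopolysaccharide coreceptor, at 1065.3 and 3100.7 (2.91-fold higher). Interferon response genes had no common direction, 1 of 24 reaching 2-fold upwards and 2 downwards. Ubd, a ubiquitin-like modifier, read 217.2 and 1863.5 (8.58-fold higher), while Ido1 and Ifit1 (329.2 and 143.9, 2.29-fold) were lower.

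Genes of IgA and its transport were among the highest even though lymphocyte genes were lower. Jchain, the joining chain of polymeric IgA, read 68.9 and 5160.7 (74.9-fold higher) and Igha, the IgA heavy chain, 229.4 and 6954.9 (30.3-fold, with both other probe sets as high). Pigr, which carries polymeric IgA through epithelial cells, read 18.1 and 489.5, at least 23.9-fold higher. On GW501516 Pigr stood at 36.5 and 2114.7 (57.9-fold), Jchain at 112.4 and 227.0 (2.02-fold) and Igha at 502.6 and 1408.6 (2.80-fold). The list as a whole had no stable direction. Its median was 0.32, but -0.03 with no filter on low values and -0.42 once probe sets that can share transcripts were left out. Ighm read 1417.9 and 602.1, but its 10 other probe sets ran from a log2 difference of -1.51 to 3.14, so no direction is given for it.

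Acute-phase and defence proteins split in the same way. Saa1, serum amyloid A, read 9.2 and 428.8, at least 20.9-fold higher, and Saa2 8.4 and 101.0, at least 4.93-fold. Dmbt1, a mucosal defence protein, read 203.4 and 0.6, at least 9.92-fold lower, and Fgg, fibrinogen γ, 291.1 and 105.8 (2.75-fold lower). In the detoxification list Cyp1b1 read 448.0 and 2386.1 (5.33-fold higher) and Akr1c18, which inactivates progesterone, 763.4 and 137.4 (5.56-fold lower). The other probe sets of Cyp1b1 stood at log2 differences of 0 and 3.29. Alox12e, an epidermal lipoxygenase, read 39.9 and 199.3 (5.00-fold higher), and Ptgis, prostacyclin synthase, 1041.3 and 340.6 (3.06-fold lower).

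Skeletal muscle genes made up a separate block on the higher side. Of 31 members 30 were above 0 and 20 of them by 2-fold or more; the median was 1.48, against -0.21 on GW501516. Myh2, a fast myosin heavy chain, read 11.8 and 295.0 (at least 14.4-fold higher), Mb, myoglobin, 85.6 and 912.8 (10.7-fold, its other probe set at 0) and Ckmt2, mitochondrial creatine kinase, 45.5 and 387.9 (8.53-fold). On the GW501516 arrays the same genes read 1671.9 and 1249.6, 4056.4 and 3547.7, and 2436.4 and 1736.1. Immediate early genes, a class that answers to stimuli within minutes, were also higher on chow, 6 of 25 by 2-fold or more and 0 lower, at a median of 0.42. Fos read 394.0 and 2801.9 (7.11-fold), Nr4a1 177.7 and 760.6 (4.28-fold), Egr1 1216.6 and 4410.3 (3.63-fold) and Myc 481.9 and 1540.2 (3.20-fold). In the GW501516 pair none of these 4 differed by more than 1.25-fold.

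Most genes of the brightest probe sets were lower by a small amount. Of 304 genes with a geometric mean chow intensity of at least 5000, 83.9% were below 0, with a median of -0.24, against 0.0002 for the same genes on GW501516. The exceptions included 3 genes that stood 2-fold or more above wild type. Respiratory chain and ATP synthase subunits were among the lower ones, with 38 of 40 below 0, none at 2-fold and a median of -0.27, as did cytosolic ribosomal proteins, with 26 of 29 below 0 and a median of -0.21, which became 0.08 under quantile normalization. Uqcrc1 read 6259.2 and 4103.6 and Rpl38 16041.5 and 12319.5. Actb read 11992.9 and 8946.2 (1.34-fold lower), and Hprt, a dimmer reference gene, 2168.3 and 1998.1. The added Cre transcripts, bright and not of mouse origin, were lower on the transgenic chow array by 1.33- to 1.36-fold. The dimmer added transcripts were lower there too, BioC by 1.33- to 1.49-fold and BioD by 1.17- to 1.40-fold. BioB, the dimmest, was lower by 8.56- to 15.7-fold. The part of signal level in the small differences of bright gene groups was not tested.

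**Figure D4:**
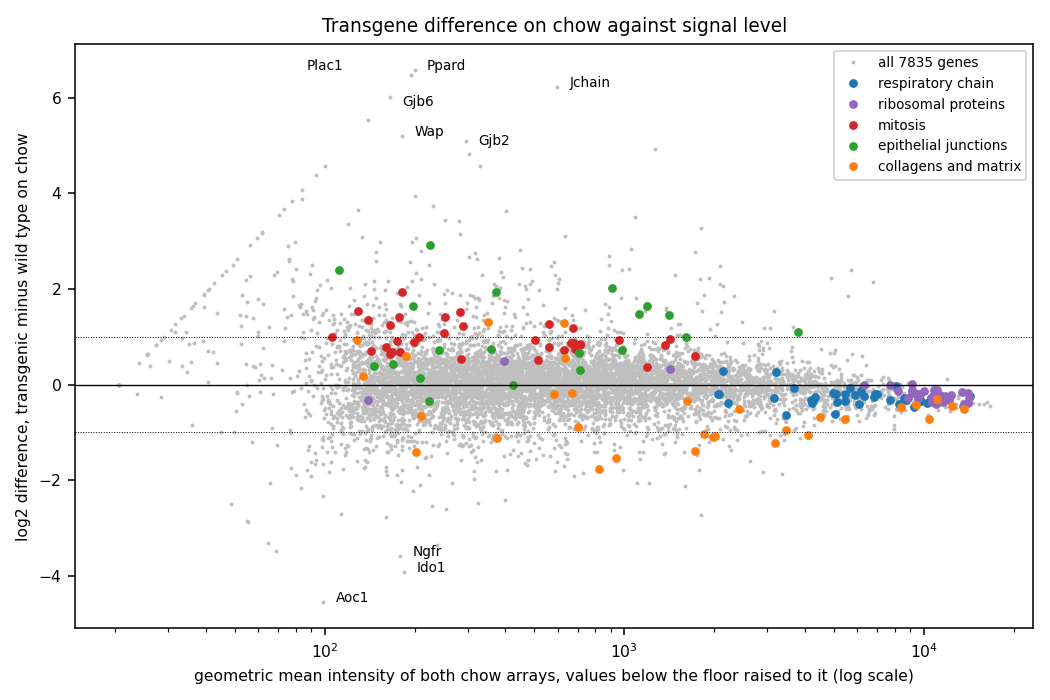
Log2 difference, transgenic minus wild type on chow, against the geometric mean intensity of both chow arrays (log scale), with 7835 genes in grey, 5 gene lists in colour and dotted lines at 2-fold. The grey cloud is widest at low intensity and lies below 0 at the right end, where the respiratory chain and ribosomal protein genes fall.

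The GW501516 pair gave a second view of the genotype difference with no array in common. There 219 of 7835 genes (2.8%) stood at least 2-fold above wild type and 91 (1.16%) at least 2-fold below. Of the 426 genes higher on chow 123 were also at least 2-fold higher on GW501516, 298 were within 2-fold and 5 were at least 2-fold lower. Of the 289 genes lower on chow only 17 were at least 2-fold lower on GW501516, 268 were within 2-fold and 4 were higher. Next to Ppard, Plac1, Wap, Pigr, Saa1, Aqp3 and Slc34a2, the genes higher on both diets included Chrdl2, Krt14, Gjb2, Muc1, Elf5, Crabp2, Fabp3, Slc28a3 and Kcnn4. Crabp2, Fabp3, Slc28a3 and Kcnn4 differed by more on GW501516 (8.06-, 5.97-, 11.7- and 6.81-fold), and Krt14, Gjb2 and Elf5 by less. Whether the genotype difference depends on the diet could not be tested with 1 pool per group.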

How the data were processed

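Mammary gland RNA was hybridised to 4 Affymetrix arrays, 1 pool of 5 mice per group and 22690 probe sets each. The deposited values are intensities on a linear scale; per the labels, biotin-labelled cRNA was made from 6 µg of RNA by the Affymetrix protocol. The summarisation method, like the scanner software and the build, was not given in the sources used here. Leaving out the lowest and highest 2%, the mean was 500.17 to 500.2 on every array, so the authors had scaled the arrays to a common mean, and medians were 137.15 to 144.0. The number of arrays limits the precision.

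Gene symbols came from the platform's annotation of its probe sets, updated by gene ID with a RefSeq table. One symbol was given for 20393 probe sets (20364 matched by gene ID), several for 691 and none for 1606; the latter groups and control probe sets named no gene. Values below 20.5 (25th percentile) were raised to it and log2 taken. A gene (12393 in all) was read by its brightest probe set by mean log2 over the 4 arrays, and the 7835 genes reaching 139 (the median) on at least 1 array were measured. No test was run.

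Gene lists (56) and members were chosen with earlier results of these data known. Named genes were Ppard, the 20 highest and 20 lowest on chow, up to 5 members per list with the largest difference, genes at least 2-fold opposite on the 2 diets, Pdk4, Angptl4, Plin2, Cpt1a, Gapdh, Actb and Hprt. Aqp5, Csn3, Cx3cl1, Krt8, Krt18, Mki67, Rxra and Sfrp4, and Ltf as a milk protein, were named after their values were seen. The alternatives were 2 other scalings, 2 other floors, 3 other filters and 2 other ways of choosing probe sets. The steps were tested on simulated data. Python 3.11.15, pandas 2.3.3 and numpy 2.4.6 were used. Motifs were sought on both strands of the first listed RefSeq promoter per gene.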

Additional observations from a re-analysis of the deposited data

Results flagged for a closer look

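For 9 genes the genotype difference was at least 2-fold in opposite directions on the 2 diets, which was not tested, since each diet had 1 pool per genotype. Lower in transgenic mice on chow and higher on GW501516 were Ang3, an angiogenin-family ribonuclease (log2 differences of -2.49, a bound, and 1.09), Greb1, an estrogen-responsive gene (-2.86, a bound, and 1.30), Lalba, α-lactalbumin (-1.97 and 2.55), and Tgm1, a transglutaminase of the cornified layer (-1.02 and 1.09). Higher on chow and lower on GW501516 were Clca3a2, a chloride channel regulator (1.11 and -3.07), Defb1, a β-defensin (2.29 and -1.18), Elovl3, a fatty acid elongase (3.14 and -2.01), Serpinb5, maspin (1.14 and -1.10), and Wnt5b, a WNT ligand (1.68 and -1.14). Ang3 was within 2-fold on chow under some processing choices. Clca3a2 read 933.4 in wild type on GW501516, the highest of its 4 arrays (385.6, 830.6 and 111.1 on the others), and Elovl3 839.0 in transgenic mice on chow (95.3, 359.7 and 89.2 on the others). Lalba ran from 159.0 in transgenic mice on chow through 624.5 and 1767.9 to 10324.9 in transgenic mice on GW501516.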

How the results depend on the processing

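The counts of 426 higher and 289 lower genes stayed within 1.5 times under 8 of 9 alternatives. With the filter at the 75th percentile, which tests 4371 genes, they were 215 and 130, and all of these were among the genes counted before. Median scaling gave 389 and 343 and quantile normalization 393 and 325. List medians at least 0.1 from 0 changed sign in 3 cases. Ribosomal proteins stood at 0.0802 under quantile normalization. The IgA and plasma cell list stood at -0.0284 without a filter and at -0.417 once probe sets that can share transcripts were left out. The cause was not tested. The other list medians under the alternatives lay within the scatter between probe sets (an SD of 0.45) of the reported one in 467 cases and beyond it in 5; medians closer to 0 have no stable sign. Among 2345 values of named genes under the alternatives 69 moved by more than that SD, and 0 of those past 2-fold changed sign. Ang3, Col5a3, Ehhadh, Gpam, Jag2, Kif11, Saa2, Slc15a2 and Wnt5a, among others, were within 2-fold under at least 1 alternative. No paired analysis was possible because each group had 1 array, and no array could be left out for the same reason. Differences of 2-fold were most frequent among dim genes, at 21.9% of genes below 200 against 0.987% of those at 5000 or more. This rate does not measure how secure a difference is. A dim gene could be kept through 1 high array, and the part of the filter in the rate was not tested. Differences of dim genes still call for caution, as no scatter between arrays was measured.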
